A study of Mus musculus with 6 samples.

Results

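The synapsin and TIMP genes are 7 genes of the mouse, Syn1, Syn2 and Syn3 and Timp1, Timp2, Timp3 and Timp4, taken by gene name from the 22753 genes of the deposited count table. Each name matched 1 gene. RNA came from C2C12 cells, an established line of mouse myoblasts with both muscle and bone potential, in 2 groups of 3 samples. The DMSO group received the solvent alone, at 1% of the medium. For the compound group no DMSO percentage is recorded. The compound group received a hit of a high-throughput screen at 10 µM, named ru226 in the sample titles and described in the labels as a quinolinone bearing a phenylimidazole group. Treatment lasted 2 days in both groups, which shared serum-containing medium and carried no genetic change that the labels name. Nothing says that the samples of a group were separate cultures. The p-values therefore set group differences only against the scatter of these samples, and that scatter may be technical.

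TIMPs, the tissue inhibitors of metalloproteinases, are small secreted proteins that block matrix metalloproteinases and, for TIMP3, several ADAM and ADAMTS proteases; TIMP3 also stays bound to the matrix. In muscle, the balance of these proteases and inhibitors shapes the matrix around fibres and the movement of myoblasts. Synapsins are phosphoproteins on synaptic vesicles that hold a reserve pool of vesicles in nerve terminals. The families meet in the genome: 3 of the 4 TIMP genes lie inside a synapsin gene, on the opposite strand.

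The coding sequences are shown because a read can be filed under the wrong paralog only where paralogs share sequence. Each line gives 60 coding bases, 5′ to 3′ on the gene's own strand, from GENCODE M21 transcripts of the mouse build GRCm38. For TIMPs the stretch starts at the first codon of the first cysteine-any-cysteine of the translation, where the mature inhibitor begins, and the capitals mark both cysteine codons. It is joined across an intron in all 4.
Timp1 (chrX:20871111-20872784, plus strand): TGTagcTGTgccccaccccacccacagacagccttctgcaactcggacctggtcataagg
Timp2 (chr11:118320202-118355012, minus strand): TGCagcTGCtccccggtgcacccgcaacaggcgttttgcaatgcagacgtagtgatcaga
Timp3 (chr10:86300923-86338380, plus strand): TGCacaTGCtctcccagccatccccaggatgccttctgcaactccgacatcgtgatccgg
Timp4 (chr6:115250470-115251691, minus strand): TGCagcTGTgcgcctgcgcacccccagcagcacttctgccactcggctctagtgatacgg

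For synapsins the stretch starts at the start codon, and the capitals mark the codon of the serine in the first arginine-arginine-any-serine, the known site of protein kinase A in the amino-terminal domain.
Syn1 (chrX:20920730-20920789, minus strand): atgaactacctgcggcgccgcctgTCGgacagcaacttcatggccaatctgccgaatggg
Syn2 (chr6:115135081-115135140, plus strand): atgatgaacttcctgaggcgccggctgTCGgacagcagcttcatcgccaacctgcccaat
Syn3 (chr10:86467230-86467289, minus strand): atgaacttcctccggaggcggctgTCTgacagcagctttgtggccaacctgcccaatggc

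Within a family the proteins were related but the transcripts were distinct. Aligned residues of the translated TIMP transcripts were identical at 40.1% (Timp1 and Timp3) to 48.9% (Timp2 and Timp4). Those of the synapsins were identical at 56.2% (Syn1 and Syn3) to 70.2% (Syn1 and Syn2). No stretch of 30 bases was shared on the same strand between any members. On opposite strands, Syn3 and Timp3 shared 1708 different stretches of 30 bases, Syn2 and Timp4 shared 62, and no other members shared any.

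The 3 nested pairs differ in how far their exons meet, which bears on whether reads of the partners' spliced transcripts can be confused. Syn3 (chromosome 10, 86055125 to 86498896, minus strand) holds Timp3 (86300372 to 86349506, plus strand), and their exons overlap over 1733 bp, from 86347774 to 86349506. This is 14.1% of the exon bases of Syn3 and 21.3% of those of Timp3, and it is the end of the last exon of Timp3. Syn2 (chromosome 6, 115134902 to 115282006, plus strand) holds Timp4 (115241892 to 115252205, minus strand) with an exon overlap of 90 bp. The deposited table gives Timp4 as 115245616 to 115251849, a span that ends short of this 90 bp stretch, and the annotation the authors counted on may thus lack it. It ends Syn2 at 115282626, so the annotation of Syn2 differs from M21 as well. Syn1 (chromosome X, 20860511 to 20921004, minus strand) holds Timp1 (20870166 to 20874735, plus strand) in an intron with no exon overlap, while 9 bp at its end overlap an exon of Araf, a kinase gene. Timp2 (chromosome 11, 118301069 to 118355740, minus strand) lies in no synapsin gene, and no exon of an opposite-strand gene overlaps it.

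**Figure D1:**
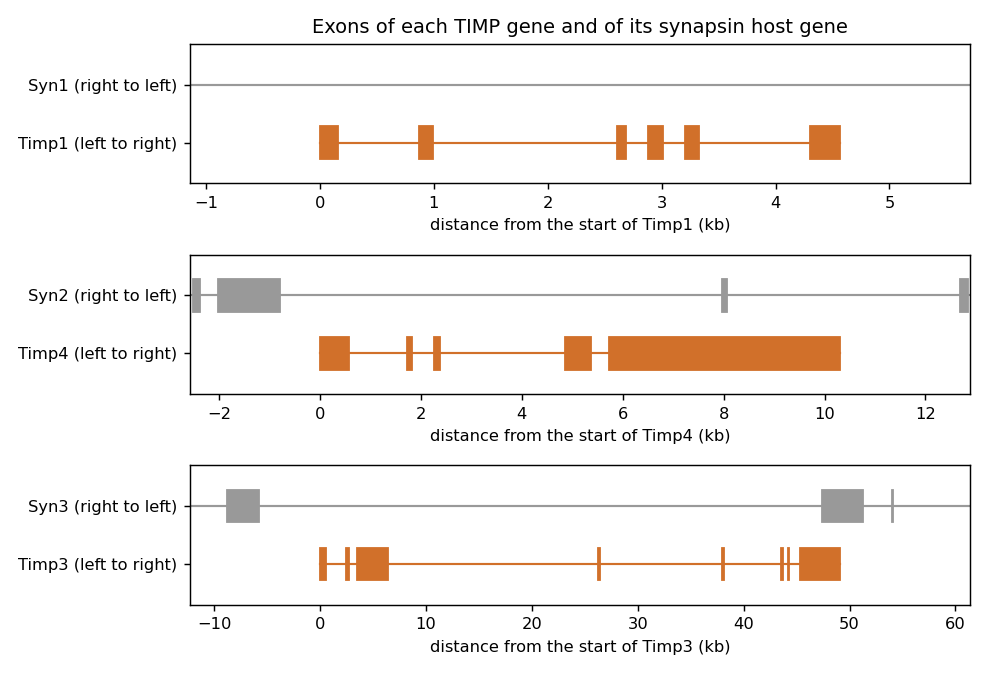
Exons (boxes) and gene bodies (lines) of the nested pairs in GENCODE M21, against distance in kb from the start of the TIMP gene along its own strand. Timp3 and Syn3 share 1733 bp of exon at the end of Timp3, Timp4 and Syn2 share 90 bp, and Timp1 lies between exons of Syn1.

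Library totals ran from 493406 to 952813 counts over the genes of the table, the highest in DMSO replicate 3, which stood 9.60 and 10.5 (chi-square per degree of freedom) from the other DMSO libraries, against 1.88 between those. No pair of libraries within a group agreed within counting noise. Genes overlapped by an exon on the opposite strand made up 23.5% of the table but held 91.8% of the counts, while the cytoplasmic actin gene Actb had a mean count of 8.17. The strand setting of the authors' counting is not given in the sources used here. Changes are therefore differences in what was filed under a gene's name, and a low count sets no bound on that gene's transcript. Over the whole table, edgeR's quasi-likelihood test (Benjamini-Hochberg adjustment, threshold 0.05) tested 2440 genes and called 7.50% higher, 10.5% lower and 18.0% in either direction. The higher calls numbered 183, but 93, 103 and 109 without compound replicates 1, 2 and 3 and 114 without DMSO replicate 2; the lower calls numbered 255, and 143 and 151 without compound replicates 1 and 2.

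Of the 7 genes, 4 passed the filter on low counts (Syn1, Syn3, Timp2 and Timp4) and 3 did not (Syn2, Timp1 and Timp3). Counts under Syn3 and Timp2 rose, and none of the members was called lower by edgeR, DESeq2 or limma-voom. At an unadjusted p under 0.05, edgeR had 1 lower member, Syn1. By CPM, the groups did not overlap for 4 of the 7 genes (Syn1, Syn2, Syn3 and Timp2). Such separation alone gives an exact permutation p of 0.1 (two-sided), the smallest that 3 against 3 allows. The share of all genes with such separation was not computed. In bulk RNA, fewer cells of a type and less RNA per cell cannot be told apart.

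**Figure D2:**
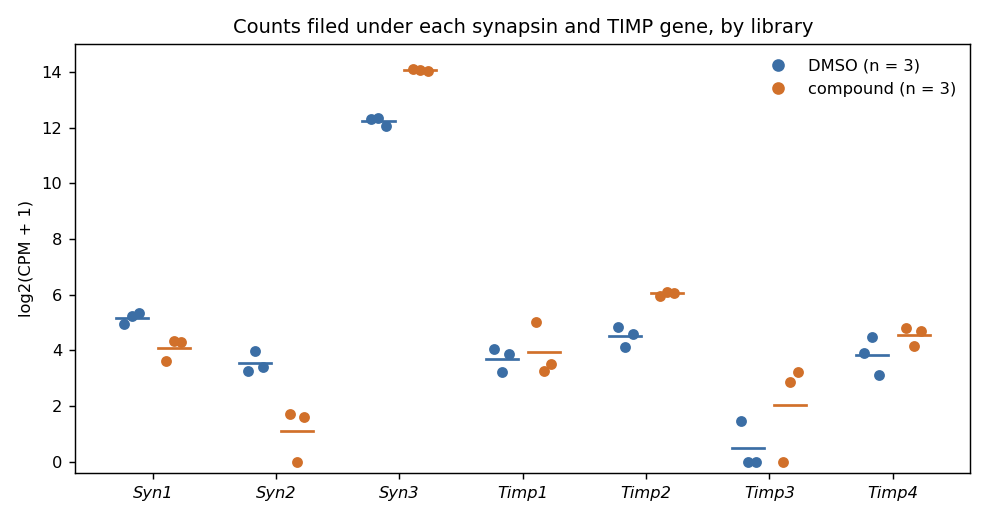
Level of each gene in each library as log2(CPM + 1), with points for libraries and bars for group means (n = 3). Syn3 stands far above the other genes and both Syn3 and Timp2 are higher in every compound library than in any DMSO library, while Syn1 and Syn2 are lower.

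Counts under Syn3, whose product is a synapsin of developing neurons, were 2893, 3131 and 4379 in DMSO replicates 1 to 3 and 7722, 8094 and 7988 in compound replicates 1 to 3. Scaled to CPM, the counts relative to a library of 1000000, the DMSO libraries held 5017, 5181 and 4204 and the compound libraries 17384, 17124 and 16573. The groups did not overlap, and the lowest DMSO value was that of replicate 3. Means were 4801 ± 523 and 17027 ± 414 CPM (SD, n = 3). The log2 change was 1.83 ± 0.11 (SE), with edgeR's adjusted p at 1.90e-08. By mean count Syn3 ranked 22nd of the 22753 genes in DMSO and 5th with the compound, and its share of a library's counts went from 0.460% to 0.524% in DMSO to 1.47% to 1.57%. The log2 change ran from 1.73 to 1.86 over the alternatives tried and was 1.73 without DMSO replicate 3.

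Timp3, the gene inside Syn3, encodes the matrix-bound TIMP, and its name held almost no counts. There were 1, 0 and 0 counts in DMSO and 0, 3 and 4 with the compound. The groups overlapped, since compound replicate 1 was at 0, and a library at 0 could still hold 3 counts, which is 3.15 to 6.08 CPM of its total (counting error only). Compound over DMSO, the ratio of summed counts was 11.1 with an exact 95% interval of 1.43 to 501, which covers counting error only, and the exact permutation p over the 6 libraries was 0.4 (two-sided; 3 against 3 cannot go below 0.1). Syn3 and Timp3 reads in the shared 1733 bp cannot be told apart without the strand setting. Which of the partners' transcripts gave the counts under Syn3 was not tested. The authors' deposited table gave Syn3 a log2 change of 1.79 (adjusted p = 1.71e-48) and Timp3 one of 0.88 with no adjusted p.

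Timp2 encodes the inhibitor that, with the membrane protease MMP14, also takes part in activating pro-MMP2. It had 16, 10 and 24 counts in DMSO and 27, 32 and 32 with the compound, or 27.7, 16.5 and 23.0 CPM against 60.8, 67.7 and 66.4. Every compound library lay above every DMSO library. Means were 22.4 ± 5.62 and 65.0 ± 3.67 CPM (SD, n = 3). The log2 change was 1.52 ± 0.34 (SE), and edgeR's adjusted p was 0.00639. The change ran from 1.34 (without DMSO replicate 2) to 1.64 (without DMSO replicate 1), with adjusted p of at most 0.0358 in every fit that tested it. The authors' deposited table gave 1.42 (adjusted p = 6.58e-05).

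Syn3 and Timp2 lie on different chromosomes, and their rises were compared within each library, where no scaling enters. There were 181, 313 and 182 Syn3 counts per Timp2 count in DMSO and 286, 253 and 250 with the compound. DMSO replicate 2, with 10 counts under Timp2, was highest, and the groups overlapped. The log2 ratio was 0.27 higher with the compound (7.77 ± 0.45 in DMSO and 8.04 ± 0.11 with the compound, SD, n = 3; exact permutation p = 0.4, two-sided, smallest possible 0.1). Since 3 against 3 cannot reach 0.05 in this test, neither a difference between the rises nor their equality is shown.

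Syn1, a vesicle-binding synapsin of mature neurons, had 17, 22 and 41 counts in DMSO and 5, 9 and 9 with the compound, or 29.5, 36.4 and 39.4 CPM against 11.3, 19.0 and 18.7. The groups did not overlap. The log2 change of -1.10 ± 0.42 (SE) missed the threshold (adjusted p = 0.0818 in edgeR, and 0.0792 to 0.232 over the alternatives). The authors' deposited table gave -1.003 with an adjusted p of 0.0531. Araf, whose exons meet those of Syn1 over 9 bp, had 9, 12 and 23 counts in DMSO and 17, 15 and 22 with the compound. Its log2 change of 0.98 ± 0.39 (SE) missed the threshold too (adjusted p = 0.0971 in edgeR).

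Timp1, the soluble inhibitor inside Syn1, had 9, 5 and 14 counts in DMSO and 14, 4 and 5 with the compound. Compound replicate 1 stood at 31.5 CPM and the other compound libraries at 8.46 and 10.4, within the DMSO range of 8.27 to 15.6 CPM. Group means were 12.4 ± 3.77 and 16.8 ± 12.8 CPM (SD, n = 3), and the exact permutation p was 0.8 (two-sided, smallest possible 0.1). Syn1 and Timp1 share no exon base, so that reads of this pair's spliced transcripts are separate by position. Timp1 lies in an intron of Syn1, however, and unspliced Syn1 RNA would cover its exons. Whether such reads were filed under Timp1, and whether the changes of Syn1 and Timp1 differ, was not tested.

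Syn2, the synapsin that hosts Timp4, had 5, 9 and 10 counts in DMSO and 1, 0 and 1 with the compound. All compound libraries lay below all DMSO libraries. DMSO over compound, the ratio of summed counts was 7.55 (exact 95% interval 1.88 to 65.9, counting error only). The gene was under the filter on low counts, and the exact permutation p was 0.1, the smallest that 3 against 3 allows. Without the filter, edgeR gave an adjusted p of 0.155, whereas the authors' deposited table lists Syn2 as lower with an adjusted p of 0.0359. Timp4, an inhibitor best known from heart, had 8, 13 and 8 counts in DMSO and 12, 8 and 12 with the compound, or 14.4 ± 6.93 and 22.9 ± 5.32 CPM (SD, n = 3). Its groups overlapped and the log2 change of 0.73 ± 0.51 (SE) did not pass (adjusted p = 0.360 in edgeR). Single DMSO libraries moved it, to 0.36 without replicate 3 and 1.11 without replicate 2, and none of the alternatives passed (adjusted p of 0.243 to 0.734).

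**Figure D3:**
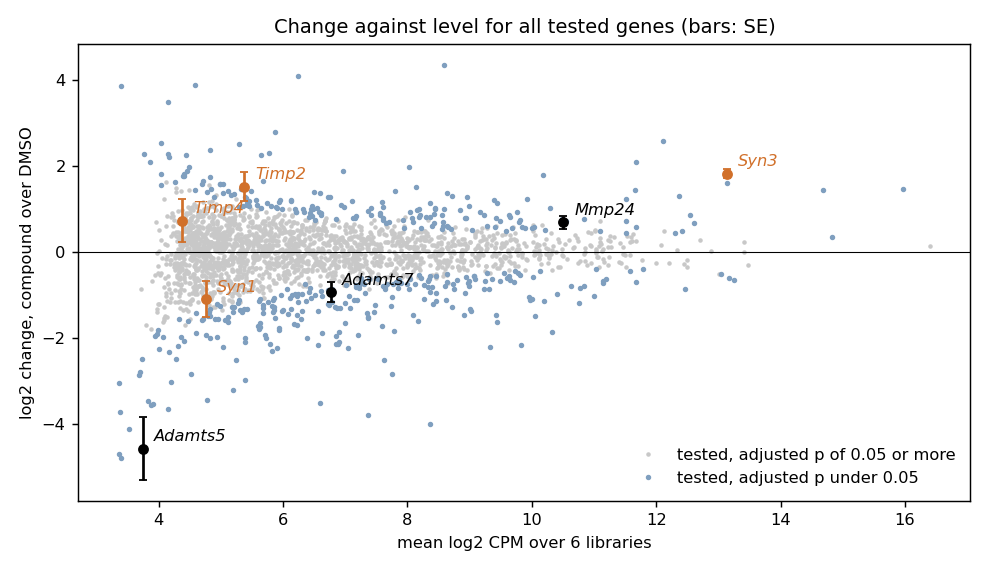
Log2 change of compound over DMSO against mean log2 CPM over 6 libraries (prior count 2) for the 2440 tested genes. The tested members are orange and 3 metalloproteinase genes black, with SE bars. Syn3, at 1.83, lies among the most abundant genes, with a mean log2 CPM of 13.1, and Timp2, at 1.52, lies at 5.38.

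Levels of different genes are compared as CPM per kb of annotated exon. In DMSO the order was Syn3 at 391 ± 42.6, Timp1 at 14.0 ± 4.24, Syn1 at 10.6 ± 1.54, Timp2 at 5.76 ± 1.44, Timp4 at 2.44 ± 1.18, Syn2 at 1.57 ± 0.477 and Timp3 at 0.0710 ± 0.123 CPM per kb (SD, n = 3). Timp1 and Syn1 overlapped over the libraries, as did Timp4 and Syn2. With the compound it was Syn3 at 1386 ± 33.7, Timp1 at 18.9 ± 14.4, Timp2 at 16.7 ± 0.943, Syn1 at 4.95 ± 1.33, Timp4 at 3.89 ± 0.903, Timp3 at 0.599 ± 0.533 and Syn2 at 0.205 ± 0.178. There Timp1 and Timp2, Syn1 and Timp4, and Timp3 and Syn2 overlapped. Syn1 was above Timp2 in DMSO and below it with the compound, with no overlap between them in either group. For Syn3 the per-kb level counts all exons, although 14.1% of them meet Timp3. For Timp4 it uses the 5894 exon bases of M21, which lie over 115241892 to 115252205. The deposited table gives Timp4 the shorter span of 115245616 to 115251849, which leaves out part of these exons. The per-kb level of Timp4 may therefore be too low, and its place in both orders is not settled. The deposited end of Syn2 differs from that of M21 too, so the per-kb level of Syn2 is not settled either.

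The proteases that TIMPs block were followed as lists. Over all tested genes, 7.50% were higher and 10.5% lower. These lists and those further on hold few tested genes, and their calls are not read as results about a list. Of 23 matrix metalloproteinase genes, 12 had no count in any library and 2 were tested, of which Mmp24 rose and Mmp19 did not pass. Mmp24, a membrane-bound metalloproteinase, went from 1155 ± 236 to 1858 ± 69.8 CPM (SD, n = 3), with a log2 change of 0.69 ± 0.16 (SE) and an edgeR adjusted p of 0.00801; its exons meet 637 bp of BC029722 on the opposite strand. Its call was lost without compound replicate 1 (adjusted p = 0.0566). The list median over the tested genes was 0.47, beside 0.02 over all tested genes.

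Of 30 ADAM and ADAMTS genes, 6 were tested and 2 fell, beside 10.5% lower among all tested genes. None was called higher by edgeR, DESeq2 or limma-voom (1 at an unadjusted p under 0.05 in edgeR). The median log2 change was 0.03. Adamts5, an aggrecanase that TIMP3 inhibits, had 20, 22 and 46 counts in DMSO and 0, 0 and 2 with the compound. DMSO over compound, the ratio of summed counts was 27.7 (exact 95% interval 7.44 to 232, counting error only), with an adjusted p of 0.000525 in edgeR; no opposite-strand exon overlaps it. Adamts7, a protease of cartilage and vessel wall matrix, fell from 146 ± 21.1 to 77.0 ± 6.69 CPM (SD, n = 3), with a log2 change of -0.93 ± 0.23 (SE) and an edgeR adjusted p of 0.0119. Its exons meet 122 bp of Tbc1d2b, and its call was lost without compound replicate 1 (adjusted p = 0.0606). Adamts4, another aggrecanase, named after its values were seen, missed the threshold at 0.72 ± 0.26 (SE) on the log2 scale (edgeR adjusted p of 0.0722) but was called higher without DMSO replicate 3 (0.0108) or compound replicate 3 (0.0497). Of 16 other protease inhibitors and TIMP binding partners, 2 were tested and neither passed with any of the 3 tools or at an unadjusted p. Itgb1, an integrin that TIMP2 can bind, stood at a log2 change of 0.20 ± 0.23 (SE), which turned to -0.11 without compound replicate 2, and Pcolce, an enhancer of procollagen cleavage, at 0.50 ± 0.30 (SE).

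Synaptic genes showed where else the synapsins' own pathway had counts. Summed over 48 synaptic vesicle and exocytosis genes, the level was 1889 to 2292 CPM of the library total in DMSO. With the compound it was 1657 to 1865. The highest mean count of the list, 792, was that of Unc13a, named here for its count. Of the 48 genes, 11 had no count in any library, among them Syt1, Vamp2 and Snap25, and 9 were tested. None was called higher by any of the 3 tools or at an unadjusted p. Of the 9, 1 fell, beside 10.5% lower among all tested genes, and the list median was 0.01. The gene that fell was Bsn, which encodes the presynaptic scaffold bassoon, with 67, 49 and 161 counts in DMSO and 31, 34 and 9 with the compound. This is -1.16 ± 0.38 (SE) on the log2 scale, with an edgeR adjusted p of 0.0465. The call was lost without DMSO replicate 1 or any 1 compound library (adjusted p of 0.0553 to 0.151), and also under the stricter filter of a mean count of 50 (0.0586). Without DMSO replicate 3, 2 genes of the list were lower, the other being Dnm2, a dynamin of vesicle scission overlapped by Tmed1 (log2 change of -0.52 there and of -0.24 with all libraries; named after its values were seen).

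**Figure D4:**
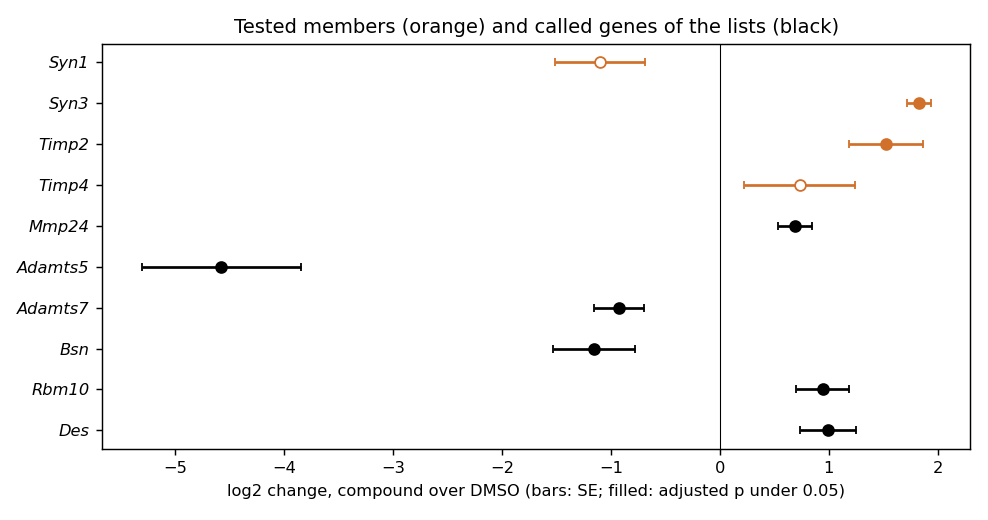
Log2 change of compound over DMSO with SE bars for the 4 tested members (orange) and for the list genes that passed the threshold (black), with filled points for an adjusted p under 0.05. Syn3 and Timp2 lie right of 0 with Mmp24, and Adamts5, Adamts7 and Bsn left of it; the value of Adamts5 is a fitted one for a gene at 0, 0 and 2 counts with the compound and depends on the prior count.

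Neighbouring genes of the member loci were examined for changes that run across a region. Of 24 such genes with a row, 6 were tested, 1 was higher and none lower with any of the 3 tools (2 and 1 at an unadjusted p), with a median of 0.34. Among all tested genes, 7.50% were higher and 10.5% lower. Rbm10, a splicing regulator gene on the X chromosome in the region of Syn1, was the one that rose. It had 139, 137 and 119 counts in DMSO and 146, 181 and 188 with the compound, which is 0.94 ± 0.25 (SE) higher on the log2 scale with an edgeR adjusted p of 0.0163. Its exons meet 117 bp of Ndufb11, and its call was lost without any 1 compound library (adjusted p of 0.0528 to 0.0813). Dnah17, an axonemal dynein gene overlapped by Pgs1 and Gm11738 and named after its values were seen, missed the threshold at -0.41 ± 0.15 (SE) on the log2 scale (edgeR adjusted p of 0.0631) but was called lower without DMSO replicate 3 (0.0104) and when only genes averaging 50 counts were tested (0.0483).

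Syn3 was also set beside other genes built like it. Of the 408 genes in the table that wholly hold an opposite-strand protein-coding gene, 90 were tested, 6 were higher and 12 lower, which is 20.0% called. Their median log2 change was -0.11. Among these 90, Syn3 ranked 2nd by mean count and 3rd by log2 change. Of the 80 with an exon overlap 22.5% were called, at a median mean count of 92.8 and a median level of 32.9 CPM per kb. Of all 1760 tested genes with such an overlap 19.5% were called, at medians of 60.75 counts and 26.7 CPM per kb. The 10 of the 90 with no such overlap had no call by edgeR. Their median mean count was 15.6 and their median level 6.88 CPM per kb, too few genes and counts to read a difference from. Timp2 belongs to the 643 tested genes that no opposite-strand exon overlaps. Of these, 47 were higher and 39 lower, which is 13.4% called, beside 18.0% of all tested genes. Their median mean count was 19.5, beside 41.3 over all tested genes, and their median level was 8.15 CPM per kb.

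The 3 genes whose profile over the 6 libraries was most like that of Syn3 were Gm9747, Pfkp and Hectd2, out of 1097 others with a mean count of at least 50. Likeness was the root mean square difference of centred log2 CPM, which was 0.197, 0.201 and 0.209. Each of the 3 has an exon overlap with an opposite-strand gene, Irs1 over 2822 bp, Pitrm1 over 748 bp and Hectd2os over 1834 bp, a trait that 87.9% of the 1097 genes compared also have. Their log2 changes were 1.60 for Gm9747, 1.79 for Pfkp and 1.89 for Hectd2. In DMSO replicate 3, Pfkp and Hectd2 were at their lowest, as Syn3 was, whereas Gm9747 was at its highest DMSO value. The 3 genes were picked by likeness over these same 6 libraries, so log2 changes near that of Syn3 follow from the choice. This is a description only, and the values of a library share its depth and group.

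**Figure D5:**
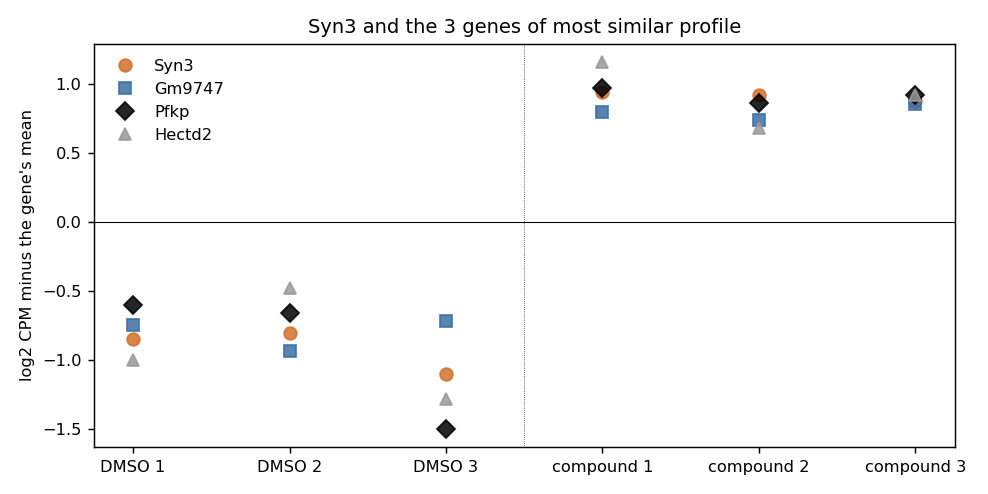
Log2 CPM (prior count 2) minus the gene's own mean over the 6 libraries, for Syn3 and the 3 genes of most similar profile. All 4 genes lie below 0 in each DMSO library and above 0 in each compound library, and the spread in DMSO replicate 3 is the widest. The 3 genes were picked for this likeness, so the shared pattern follows from the choice.

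Marker lists of other cell types were read beside the synapsin values. Summed over 12 neuron markers, the level was 1804 to 3023 CPM of the library total in DMSO and 2440 to 2884 with the compound. Most of it was Nefm, a neurofilament gene with a mean count of 1482 whose exons meet those of Nefl over 1108 bp, while Rbfox3, Snap25 and Elavl4 had no count. Neither tested neuron marker passed with any of the 3 tools or at an unadjusted p. On the log2 scale Nefm differed by 0.35 ± 0.18 (SE; edgeR adjusted p of 0.190, and of 0.0415 without DMSO replicate 1) and Nefl by 0.40 ± 0.43 (SE). The 10 astrocyte and oligodendrocyte markers summed to 15.1 to 43.0 CPM in DMSO and 16.6 to 34.5 with the compound, with none tested and Aqp4, Olig1 and Olig2 at 0. Fibroblast markers, 10 genes, summed to 120 to 152 CPM in DMSO and 54.3 to 101 with the compound; none of 2 tested passed with any tool, and 1 was lower at an unadjusted p. Col1a2, a collagen gene, stood at -0.60 ± 0.35 (SE) and passed without DMSO replicate 3 (adjusted p = 0.0322), and Col3a1 at -0.93 ± 0.41 (SE); Lum, Fbln1 and Tcf21 were at 0. The part of these cell types in the synapsin and TIMP values was not tested.

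Muscle markers had counts under all 11 genes in the table and summed to 169 to 240 CPM in DMSO and 199 to 251 with the compound. The neuron markers summed to more, 1804 to 3023 CPM in DMSO and 2440 to 2884 with the compound. Since counts are only what was filed under a name, these sums cannot check the cell line's label. Of 4 tested, 1 rose and none fell with any of the 3 tools or at an unadjusted p. Among all tested genes, 7.50% were higher and 10.5% lower. Des, the muscle intermediate filament gene, had 44, 31 and 57 counts in DMSO and 52, 67 and 49 with the compound, which is 0.99 ± 0.26 (SE) on the log2 scale with an edgeR adjusted p of 0.0160. Its exons meet 220 bp of Gm15179 on the opposite strand. Dropping DMSO replicate 2, or either of compound replicates 1 and 2, ended the call of Des (edgeR adjusted p of 0.0518 to 0.0852).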

How the data were processed

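Poly-A RNA of 6 samples was sequenced. Tools named in the submitters' processing notes are STAR 2.3.0e and HTSeq 0.6.0, with the build mm10. Neither a strand setting for counting nor an annotation release is stated in those notes. The authors deposited 1 table with raw read counts per gene and library, which were the input to every test. Per the file headers it also holds a normalised signal (the count divided by 1 size factor per library), log2 fold changes, a Wald score and p-values; these deposited values were used only where attributed to the authors. Repeated identifiers, with equal counts, were used once, which left 22753 of 24725 rows.

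Counts were tested with edgeR 4.0.16 in R 4.3.3 by its two-sided quasi-likelihood F test, after TMM scaling and filterByExpr with the groups, and adjusted by Benjamini-Hochberg over 2440 genes. The SE of a log2 change is its size over the square root of its F value. CPM is the count scaled to a TMM-adjusted library of 1000000. Summed marker levels use the plain library total. Gene positions and exons are from GENCODE M21 (GRCm38, the mm10 assembly), which held 21854 identifiers (96.0%). Library totals, 493406 to 952813, cover the table's genes only. Identity was computed on translated transcripts with biopython 1.88. Permutation tests and figures used Python 3.11.15, numpy 2.4.6, scipy 1.17.1 and matplotlib 3.10.9.

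The members and lists were chosen with earlier results of these data known. The text names every member, up to 6 list genes past the threshold or else the 2 tested members with most counts, the 3 genes most like a member among those averaging at least 50 counts, and genes whose exons meet a member's. The count test was checked on simulated data, where it called 60.9% of 2-fold changes, 97.7% of 4-fold changes and 0.34% of unchanged genes. A missed call near 2-fold therefore does not show that a gene was unchanged. Alternatives tried were limma-voom (limma 3.58.1), DESeq2 1.42.0, scaling by DESeq2's size factors or by the upper quartile, other filters, a replicate block, an adjusted p of 0.01 and each library left out.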

Additional observations from a re-analysis of the deposited data

How the results depend on the processing

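The calls of Syn3 and Timp2 held under every alternative that tested them. With a mean count of at least 50, Syn3 was the only member tested, so 1 member was called higher. Leaving out each library in turn, between 93 and 259 genes were higher and between 143 and 359 lower, and at an adjusted p of 0.01 there were 80 and 128. The Syn3 to Timp2 difference was between 0.13 and 0.53 with a library left out. Of the log2 changes of named genes, Itgb1 reversed, between -0.11 (without compound replicate 2) and 0.38 with a library left out. The cause was not tested. Of 234 list counts, 21 moved, either by over 1.5 times or between no call and some call, 18 of them when a library was left out. Counts of the astrocyte and oligodendrocyte list, which had no tested gene, could not move. Median log2 changes over all genes shifted by -0.02 and 0.02 under the other scalings.

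Samples with the same replicate number did not deviate together (correlations of -0.01, 0.02 and 0.02), so the numbers are not taken as pairs. With a replicate block 197 genes were higher and 245 lower, and no member's call changed. The Syn3 to Timp2 difference, 0.27 on the log2 scale, is the same in that pairing by construction. Depth limits Syn2, Timp1 and Timp3, which the filtered fit did not test, and none of them passed without the filter.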
